A study of Mus musculus with 6 samples.

Results

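The genes described here are the chemokine ligands and receptors of the mouse, which were taken by symbol: Ccl, Cxcl and Cx3cl genes as ligands, and Ccr, Cxcr, Cx3cr and the atypical Ackr genes as receptors. Of the 19938 genes with a probeset of their own on the array, 54 met this rule, 33 of them ligands and 21 receptors. Their transcripts were measured in primary osteoblasts from the long bones of male wild-type C57BL6/J mice aged 8 to 12 weeks, which were expanded to passage 2-3 by the labels (passage 2 by the methods) and differentiated for 14 days in osteogenic medium. The C5a cultures received recombinant murine C5a (100 ng/ml) for 4 h in proliferation medium, and their controls spent the same 4 h unstimulated in that medium. Each of 3 mice, numbered 2, 4 and 5, gave 1 culture to either group, so that 6 arrays form 3 pairs. No transgene or gene deletion was present in any culture, and every cell population is a primary culture that can hold other marrow cells. Arrays at a shorter stimulation time, which the methods name, were not analysed here.

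Chemokines are small secreted proteins that guide leukocytes along concentration gradients, and they are sorted into CC, CXC and CX3C types by the spacing of conserved cysteines near the amino terminus. They act on G protein-coupled receptors, whereas the atypical receptors bind chemokines without classical G protein signalling and take them up or scavenge them. Cells of the osteoblast lineage are known sources of chemokines such as CXCL12, which retains haematopoietic cells in the marrow, and CCL2, which draws in monocytes. C5a, a fragment of complement factor C5, is itself a chemoattractant and signals through C5aR1, a receptor of the same superfamily.

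Values are log2 intensities after robust multiarray averaging, a change is C5a minus unstimulated on that scale, and fold changes and p-values come from limma, fitted with each mouse as its own block. Array medians lay between 5.89 and 5.93, and the 6 arrays limit the precision. With 3 pairs, a two-sided exact permutation test of a single gene cannot give a p below 0.25, so p-values here come from the fit across all probesets and are adjusted over all of them. A gene is said to have risen or fallen where it met the study's own cut-offs, called the thresholds below: at least 1.5-fold, at p under 0.05 before adjustment. By this rule 3 members rose, namely Cxcl14, Cxcr6 and Cx3cl1, and 2 fell, namely Cxcl5 and Ackr4. The 5 genes are 9.26% of the members, against 4.43% of all genes, and in each direction the background was 2.22% of genes higher and 2.21% lower. At an adjusted p under 0.05 limma called 0 of the 54 members, as did both forms of the methods' t-test, and 4 of 35556 probesets (0.0112%). At an unadjusted p under 0.05 there were 8 members, 5 higher and 3 lower, and this share lies below the 20.2% of all genes. The groups did not overlap for 4 members (Cxcr6, Ackr4, Ccl17 and Ackr2), whereas they did not overlap for 18.6% of all genes. The median change over the 54 members was 0.01, close to the -0.01 of all genes.

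**Figure D1:**
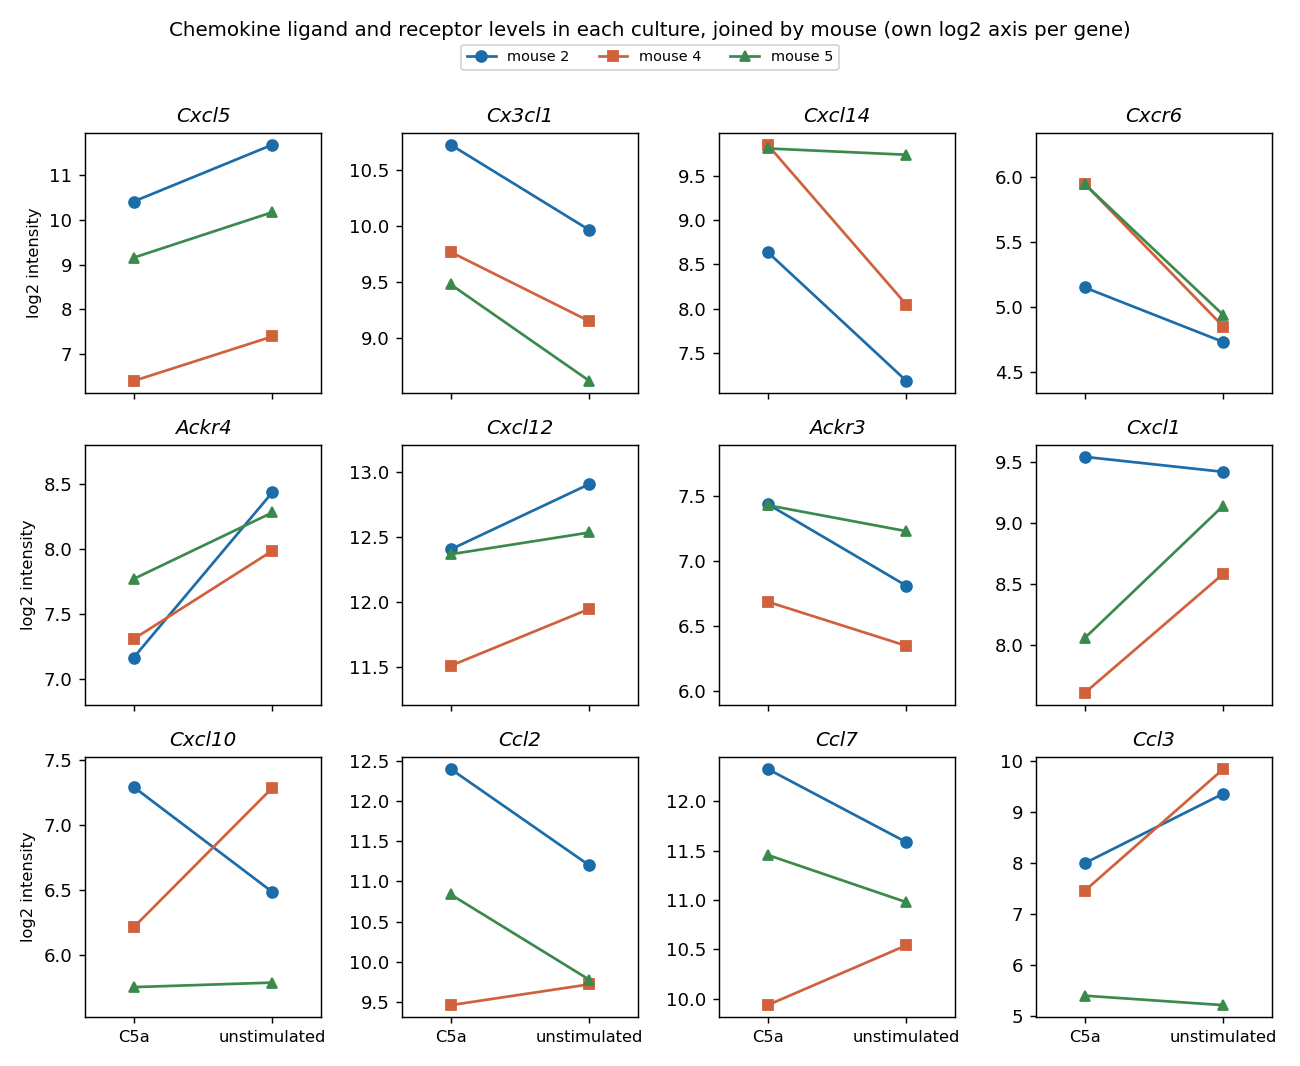
Log2 intensity (vertical axis, own scale for each gene) of 12 chemokine ligands and receptors in each C5a and unstimulated culture, with a line joining the cultures of 1 mouse. All 3 lines of Cxcl5 are lower with C5a (changes of -1.27 to -0.99) although the mice lie 4.14 apart, all 3 lines of Cx3cl1 are higher with C5a, and the lines of Cxcl10 cross.

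Cxcl5 encodes a neutrophil attractant of the ELR type, the CXC chemokines that carry a glutamate-leucine-arginine motif and act on CXCR2. Its probeset (10523120) read 10.40, 6.41 and 9.15 with C5a in mice 2, 4 and 5, against 11.67, 7.40 and 10.17 unstimulated. Within every mouse the C5a culture was the lower one, with changes of -1.27, -0.99 and -1.01, yet the groups overlapped, because the mouse means of Cxcl5 spanned 4.14 log2 units. The group means were 8.65 ± 2.05 with C5a and 9.74 ± 2.17 unstimulated (SD, n = 3 each). Cxcl5 fell by 1.09 on the log2 scale (SE 0.09, 95% confidence interval -1.32 to -0.86, adjusted p = 0.0704 with limma), to 0.469 times the unstimulated level. Without the pairing, the spread between mice enters the error and the call was lost (adjusted p = 0.903); that fit called 2.6% of all probesets.

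The other ELR ligands did not meet the thresholds. Cxcl1, another CXCR2 agonist, had 9.54, 7.61 and 8.06 with C5a, against 9.42, 8.58 and 9.14 unstimulated. Its changes were thus negative in mice 4 and 5 (-0.98 and -1.09) and positive in mouse 2 (0.12), with a mean of -0.65 (SE 0.26, adjusted p = 0.329 with limma). Without mouse 2 the change of Cxcl1 was -1.03 and met the thresholds, and it was -0.48 without mouse 4 and -0.43 without mouse 5, neither past them. Cxcl2, chosen after its values were seen, had 7.16, 5.30 and 5.29 with C5a and 6.81, 6.85 and 5.39 unstimulated, which gives changes of 0.36, -1.55 and -0.11. For Cxcl2 the groups overlapped and the mean change was -0.43 (SE 0.38). Cxcl3 and Cxcl15 stayed below the array median, with changes of 0.04 and -0.06. Of the 5 ELR genes measured 1 fell, where 2.21% of all genes fell, and their median change was -0.43.

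Cx3cl1 encodes fractalkine, a membrane-anchored chemokine that can also be shed, and it attracts cells bearing CX3CR1 such as monocytes. Its probeset (10574220) read 10.72, 9.76 and 9.47 with C5a, against 9.96, 9.15 and 8.61 unstimulated. The 3 changes of Cx3cl1, 0.76, 0.62 and 0.86, lay close together, while the groups overlapped, mouse 2 being the brightest in both. Cx3cl1 rose 1.68-fold (log2 change 0.75, SE 0.08, 95% confidence interval 0.54 to 0.96, adjusted p = 0.0869 with limma). Without the pairing this call was lost as well (adjusted p = 0.670). The receptor gene Cx3cr1 had a change of -0.14 (SE 0.09).

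Cxcl14, a chemokine of epithelia and stroma whose receptor use is debated, had the largest positive change among the members. It read 8.64, 9.85 and 9.81 with C5a in mice 2, 4 and 5, against 7.18, 8.04 and 9.74 unstimulated (probeset 10409579). Mice 2 and 4 differed by 1.46 and 1.81 and mouse 5 by 0.07, and the unstimulated culture of mouse 5 was already near the level of the C5a cultures. Cxcl14 rose 2.16-fold (log2 change 1.11, SE 0.35, 95% confidence interval 0.20 to 2.02, adjusted p = 0.230 with limma). The call rests on mice 2 and 4: the change of Cxcl14 was 0.94 without mouse 2 and 0.76 without mouse 4, neither past the thresholds, and 1.63 without mouse 5. It was also lost without the pairing (adjusted p = 0.693).

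Cxcr6 encodes the receptor for the membrane-bound chemokine CXCL16 and is known from T and natural killer cells. Its probeset (10590623) read 5.15, 5.95 and 5.95 with C5a, against 4.73, 4.85 and 4.94 unstimulated. The lowest C5a culture lay above the highest unstimulated one. Cxcr6 rose 1.79-fold (log2 change 0.84, SE 0.15, 95% confidence interval 0.44 to 1.24, adjusted p = 0.117 with limma). The call of Cxcr6 was kept without the pairing and lost in the paired form of the methods' t-test. Its signal was low, with a mean at the 38.7th percentile of all probesets, and in the genome annotation Cxcr6 lies within the gene Fyco1. Fyco1 (probeset 10597978) did not share the direction, with changes of -0.43, -0.02 and -0.52 (mean -0.32, SE 0.12, adjusted p = 0.292 with limma). The T and B cell markers stayed low on every array, with a log2 summed level of 7.61 to 7.67 with C5a and 7.66 to 7.79 unstimulated over 6 genes, of which 0 met the thresholds. The ligand gene Cxcl16 read 7.76, 8.04 and 7.13 with C5a and 7.90, 7.85 and 7.09 unstimulated, a change of 0.03.

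Ackr4 encodes an atypical receptor that scavenges CCL19, CCL21 and CCL25. It read 7.16, 7.31 and 7.77 with C5a, against 8.44, 7.99 and 8.28 unstimulated (probeset 10596222). Every C5a culture lay below every unstimulated culture, and the changes within the mice were -1.27, -0.68 and -0.51. Ackr4 fell by 0.82 on the log2 scale (SE 0.16, 95% confidence interval -1.25 to -0.40, adjusted p = 0.129 with limma), to 0.566 times the unstimulated level. The call of Ackr4 was kept without the pairing and lost in the paired form of the methods' t-test. The annotation of Ackr4 overlaps that of Acad11, an acyl-CoA dehydrogenase gene, which fell by 0.87 (SE 0.08, adjusted p = 0.0811 with limma). Acad11 (probeset 10588357) read 7.82, 7.98 and 8.38 with C5a, against 8.82, 8.83 and 9.12 unstimulated, and whether the fall belongs to either transcript or to both cannot be told apart from these probesets. The CCR7 ligand gene Ccl19 and the CCR9 ligand gene Ccl25, whose proteins ACKR4 takes up, had changes of 0.02 and 0.21 at their brightest probesets. The other probeset of Ccl25 had a change of 0.02, and the other Ccl19 probesets had changes of -0.04 to -0.03. Among the other atypical receptors, Ackr2 was chosen after its values were seen: it had non-overlapping groups at a change of only 0.10, and Ackr1 a change of 0.01.

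The promoter sequences of the called genes are shown so that the letters upstream of genes that moved in opposite directions can be read side by side. Each is the 250 bases before the annotated start in RefSeq (GRCm38.p6), 5′ to 3′ on the strand of the gene. Those of Cxcl1 and Cxcl10, which were not called, are added as examples of genes whose changes differed in sign between mice. The changes of many other members did so too, so the choice is not a sample of them. Cxcl5 had no entry in the promoter table and is not shown. Capitals mark matches, on either strand, to the kB motif, the AP-1 motif TGANTCA, the interferon response element ISRE (GAAA, then NN, then GAAA) and the GAS element TTCNNNGAA.
Cx3cl1 (chr8:94771930-94772179, + strand): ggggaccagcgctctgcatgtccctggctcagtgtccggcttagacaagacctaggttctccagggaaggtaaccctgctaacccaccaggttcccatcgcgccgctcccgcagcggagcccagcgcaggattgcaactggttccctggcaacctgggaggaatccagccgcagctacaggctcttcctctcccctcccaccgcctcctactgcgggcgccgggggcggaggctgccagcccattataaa
Cxcl14 (chr13:56296552-56296801, - strand): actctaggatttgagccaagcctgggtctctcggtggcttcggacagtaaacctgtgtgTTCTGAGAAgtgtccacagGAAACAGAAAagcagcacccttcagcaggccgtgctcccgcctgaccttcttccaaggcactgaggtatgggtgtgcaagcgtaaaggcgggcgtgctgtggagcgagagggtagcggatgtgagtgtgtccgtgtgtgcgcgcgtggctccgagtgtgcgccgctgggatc
Cxcr6 (chr9:123806227-123806476, + strand): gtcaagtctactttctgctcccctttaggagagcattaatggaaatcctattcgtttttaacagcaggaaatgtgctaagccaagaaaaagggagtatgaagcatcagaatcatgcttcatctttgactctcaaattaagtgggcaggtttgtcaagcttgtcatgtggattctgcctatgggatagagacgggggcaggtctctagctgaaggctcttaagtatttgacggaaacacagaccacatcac
Ackr4 (chr9:104126644-104126893, - strand): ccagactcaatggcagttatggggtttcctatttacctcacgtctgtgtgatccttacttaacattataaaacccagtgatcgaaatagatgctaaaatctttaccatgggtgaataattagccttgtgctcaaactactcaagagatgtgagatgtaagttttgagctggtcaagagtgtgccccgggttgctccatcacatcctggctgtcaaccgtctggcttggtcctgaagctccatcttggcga
Cxcl1 (chr5:90890995-90891244, + strand): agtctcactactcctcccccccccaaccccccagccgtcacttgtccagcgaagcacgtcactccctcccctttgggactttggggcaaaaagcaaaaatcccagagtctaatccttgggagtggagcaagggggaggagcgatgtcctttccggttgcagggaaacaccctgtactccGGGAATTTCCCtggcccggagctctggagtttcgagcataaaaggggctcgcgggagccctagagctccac
Cxcl10 (chr5:92348890-92349139, - strand): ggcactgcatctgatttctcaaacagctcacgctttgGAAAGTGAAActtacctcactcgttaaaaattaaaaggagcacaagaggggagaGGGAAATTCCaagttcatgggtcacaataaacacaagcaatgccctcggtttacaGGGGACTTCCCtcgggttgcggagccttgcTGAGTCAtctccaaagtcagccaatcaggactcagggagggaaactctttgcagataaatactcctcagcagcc
The windows of Cx3cl1, Cxcr6 and Ackr4 held none of the 4 motifs. Cxcl14 had 1 GAS and 1 ISRE match that lie near each other, Cxcl1 had 2 overlapping kB matches, and Cxcl10 had 3 kB matches, of which 2 overlap, with 1 AP-1 and 1 ISRE match. Of the 54 members, 40 matched the promoter table, with 42 windows; kB letters were in 11 of these, against 7.25% of all 32851 windows. For the other motifs the counts were 4 of 42 for AP-1 (6.75% of all windows), 3 of 42 for ISRE (2.98%) and 4 of 42 for GAS (7.02%), and such a match is a description of letters only.

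**Figure D2:**
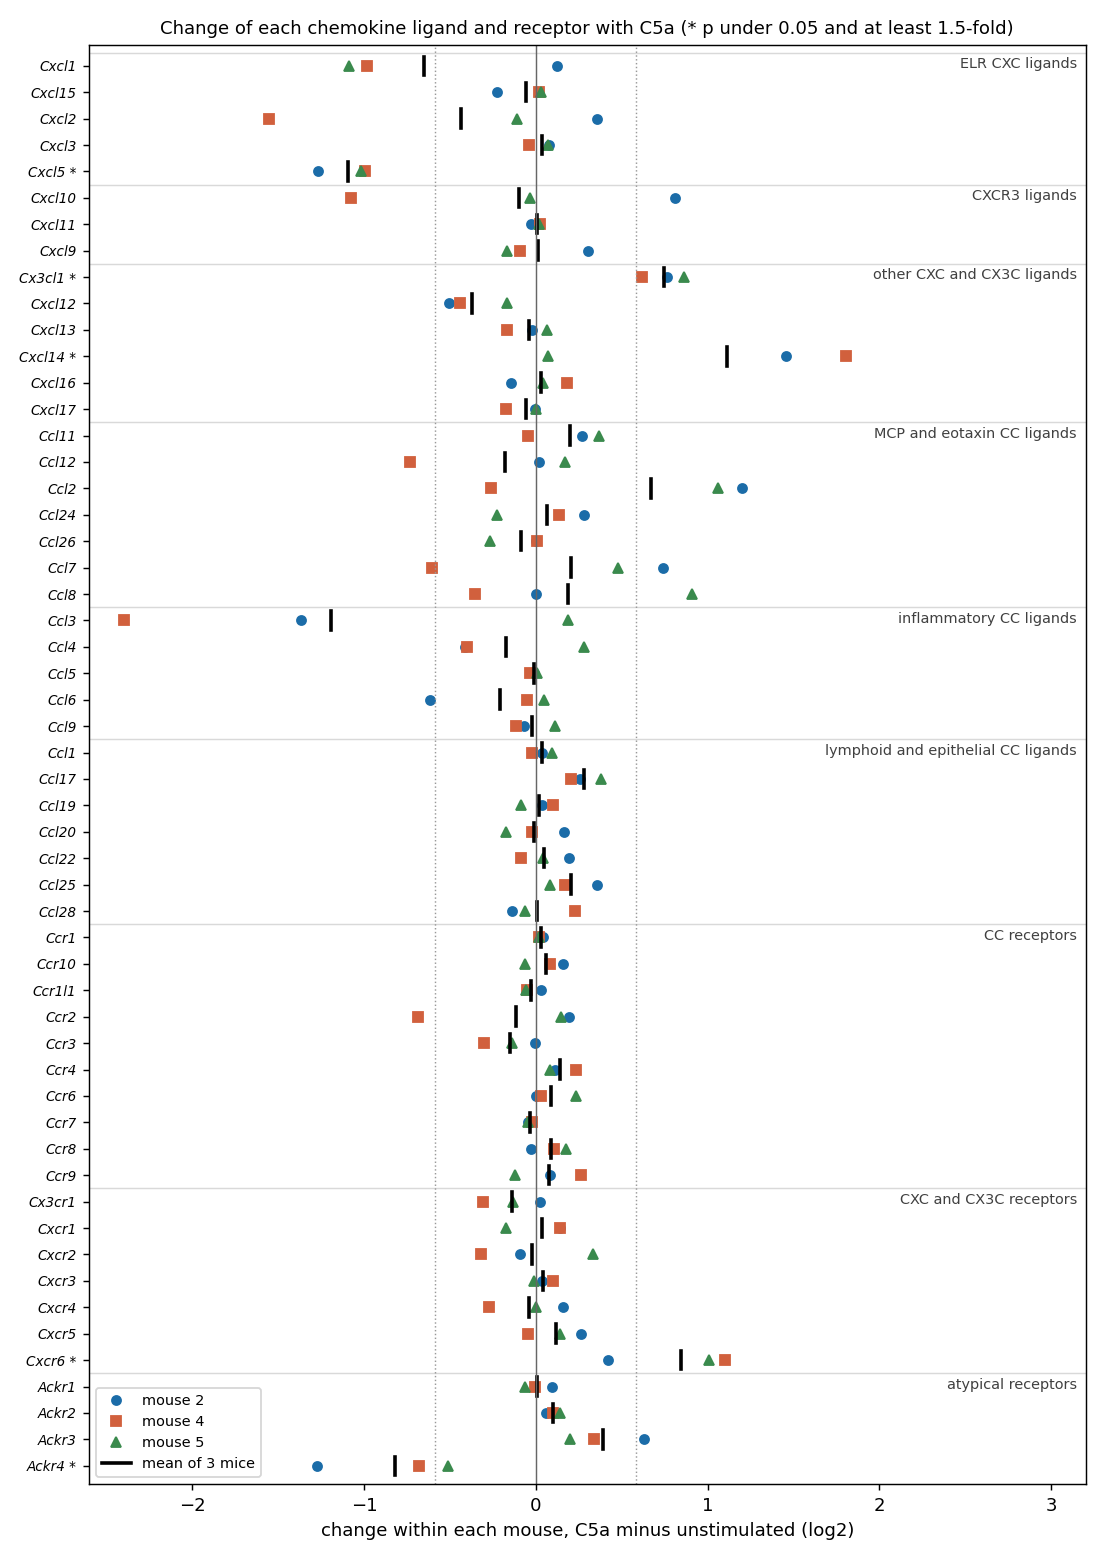
Log2 change (C5a minus unstimulated, horizontal axis) of each of the 54 members in mice 2, 4 and 5 (symbols), with a black bar for the mean of the 3 mice, dotted lines at 1.5-fold and an asterisk at the 5 genes that met the thresholds. Cxcl5, Cx3cl1, Cxcr6 and Ackr4 have all 3 symbols well to 1 side of zero, while Cxcl10 runs from -1.07 in mouse 4 to 0.81 in mouse 2.

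CXCL12 is the retention factor for haematopoietic cells, which signals through CXCR4 and is scavenged by the atypical receptor ACKR3. Cxcl12 (probeset 10541075) read 12.40, 11.51 and 12.36 with C5a, against 12.91, 11.94 and 12.53 unstimulated. It was lower with C5a in each mouse (changes of -0.50, -0.44 and -0.17), though the groups overlapped. The change of -0.37 (SE 0.09, adjusted p = 0.170 with limma) was under 1.5-fold. Ackr3 (probeset 10348451) read 7.44, 6.69 and 7.43 with C5a, against 6.81, 6.35 and 7.23 unstimulated, with a change of 0.39 (SE 0.11, adjusted p = 0.183 with limma). It was higher with C5a in each mouse, opposite in sign to Cxcl12 and likewise under 1.5-fold. Cxcr4 read 5.16, 5.63 and 5.17 with C5a and 5.00, 5.90 and 5.17 unstimulated, levels below the array median with a change of -0.04 (SE 0.11).

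CXCL9, CXCL10 and CXCL11 are the interferon-inducible ligands of CXCR3, a receptor of activated T cells. Cxcl10 (probeset 10531415) read 7.29, 6.21 and 5.75 with C5a, against 6.48, 7.28 and 5.78 unstimulated. Its changes were 0.81 in mouse 2, -1.07 in mouse 4 and -0.03 in mouse 5, with a mean of -0.10 (SE 0.36, 95% confidence interval -1.04 to 0.84, adjusted p = 0.949 with limma). The change of Cxcl10 was 0.39 without mouse 4 and -0.55 without mouse 2. Cxcl9 and Cxcl11 had mean changes of 0.01 and 0.00. Cxcr3 read 5.02, 4.86 and 4.86 with C5a and 4.98, 4.76 and 4.87 unstimulated, a low signal (31.3rd percentile) with a change of 0.04 (SE 0.07, adjusted p = 0.859 with limma). None of these 3 ligands or of their receptor met the thresholds.

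CCL2 and CCL7 act on CCR2 and recruit monocytes. Ccl2 (probeset 10379511) read 12.40, 9.46 and 10.84 with C5a, against 11.20, 9.72 and 9.78 unstimulated. Its change was 1.20 in mouse 2 and 1.06 in mouse 5, but -0.26 in mouse 4, and the groups overlapped. The mean change of Ccl2 was 0.67 (SE 0.31, adjusted p = 0.402 with limma), and 1.13 without mouse 4, where it met the thresholds (adjusted p = 0.0798). It was 0.40 without mouse 2 and 0.47 without mouse 5, neither past them. Ccl7 read 12.33, 9.93 and 11.46 with C5a, against 11.58, 10.54 and 10.98 unstimulated. Its changes had the same signs as those of Ccl2, 0.74, -0.61 and 0.48, with a mean of 0.20 (SE 0.28, adjusted p = 0.834 with limma). Without mouse 4 the change of Ccl7 was 0.61 and met the thresholds, and without mouse 2 it was -0.06. The other members of this group, Ccl8, Ccl11, Ccl12, Ccl24 and Ccl26, had mean changes between -0.18 and 0.20. Their receptor genes Ccr2 and Ccr3 had changes of -0.11 and -0.15 at levels below the array median.

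Cxcl1, Cxcl2, Cxcl10, Ccl2 and Ccl7 were all above 0 in mouse 2 and below 0 in mouse 4. These genes were picked after their values were seen, and the signs have no test. They are not particular to these genes: Cxcl3, Cxcl9, Ccl8, Ccl11, Ccl12, Ccr2 and Cxcr4, among others, had the same signs. Signs were mixed between the mice for 39 of the 54 members and for 11572 of all 19938 genes. The share of all genes above 0 in mouse 2 and below 0 in mouse 4 was not counted. Counting single mice, 6 members were at least 1.5-fold higher and 4 lower with C5a in mouse 2, 3 higher and 9 lower in mouse 4, and 4 higher and 2 lower in mouse 5. Over all genes the shares were 4.85% higher and 4.52% lower in mouse 2, 1.4% and 2.82% in mouse 4, and 3% and 2.57% in mouse 5.

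CCL3, CCL4, CCL5 and, in the mouse, CCL6 and CCL9 are inflammatory CC ligands that attract monocytes and lymphocytes, and macrophages are a known source of several of them. Ccl3 (probeset 10389231) read 8.00, 7.46 and 5.40 with C5a, against 9.37, 9.85 and 5.22 unstimulated. Its change was -1.37 in mouse 2 and -2.39 in mouse 4, but 0.19 in mouse 5, whose cultures were both near 5. The mean change of Ccl3 was -1.19 (SE 0.49, 95% confidence interval -2.47 to 0.09, adjusted p = 0.342 with limma); without mouse 5 it was -1.88 and met the thresholds (adjusted p = 0.249), without mouse 4 it was -0.59 and without mouse 2 it was -1.10, neither past them. Ccl5 read 8.58, 8.11 and 7.28 with C5a and 8.59, 8.14 and 7.27 unstimulated, a change of -0.01 with a 95% confidence interval of -0.18 to 0.16. Ccl6 read 8.38, 8.43 and 5.73 with C5a and 8.99, 8.48 and 5.68 unstimulated, and Ccl9 read 9.28, 9.80 and 7.16 with C5a and 9.35, 9.91 and 7.05 unstimulated. Their changes were -0.21 (SE 0.15) for Ccl6 and -0.02 (SE 0.08) for Ccl9, small beside the distance between the mice. Ccl4 overlaps Ccl3 in the annotation and had a change of -0.18 (SE 0.16).

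All 5 of these ligands had their lowest mouse mean in mouse 5. Mouse 5 minus the mean of the other mice was -3.36 for Ccl3, -2.87 for Ccl6, -2.48 for Ccl9, -1.08 for Ccl5 and -0.38 for Ccl4. Markers of macrophages and most of those of osteoblasts were also low in that mouse, where 5911 of all 19938 genes had their lowest mean. Of the macrophage markers 18 of 18 were lowest in mouse 5, and none has a true zero on this scale. Their summed level, given as the log2 of the sum of linear intensities, was 14.32, 14.63 and 10.79 with C5a in mice 2, 4 and 5, against 14.71, 15.03 and 10.62 unstimulated. In bulk cultures fewer macrophages and less RNA per macrophage cannot be told apart, and their part in the ligand values was not tested. With C5a, 17 of 18 macrophage markers had a change below 0, as did 10393 of all 19938 genes. Medians over the markers were -0.36, -0.49 and 0.16 in mice 2, 4 and 5, the same signs as Ccl3. At an unadjusted p under 0.05 there were 6 of these 18 markers, all lower. Of all 19938 genes 2376 were lower at that p, and 20.2% differed in either direction. The thresholds were met by 4.43% of all genes in either direction. At them 1 of 18 macrophage markers fell (Mrc1) and 0 rose, and 1 of 8 osteoclast markers rose (Nfatc1) and 0 fell. Of 7 adipocyte and reticular stromal markers 1 fell (Lpl) and 0 rose. C5ar1, the C5a receptor gene, also differed by mouse, at 8.84, 8.77 and 6.09 with C5a and 9.11, 9.41 and 5.17 unstimulated. The osteoblast label was read against 9 measured markers. Col1a1, Col1a2 and Sparc lay between 13.32 and 14.20 on all 6 arrays and carry the summed level of 15.51, 15.79 and 15.24 with C5a and 15.53, 15.82 and 15.31 unstimulated. The markers of mature osteoblasts differed by mouse: Ibsp, the bone sialoprotein gene, read 11.26, 12.62 and 7.02 with C5a in mice 2, 4 and 5, against 11.75, 12.88 and 7.56 unstimulated. Mouse 5 minus the mean of the other mice was -4.84 for Ibsp, -2.34 for Phex and -1.39 for Alpl, but 0.31 for Sost. Of the 9 osteoblast markers 7 were lowest in mouse 5. The others were Sost, highest in mouse 5, and Sp7, lowest in mouse 2. The part of this difference in the chemokine values was not tested either. Between the groups 0 of the 9 met the thresholds. Neutrophil and endothelial markers had summed levels of 7.94 to 8.31 on all arrays, and 0 of 7 neutrophil and 0 of 6 endothelial markers met the thresholds.

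**Figure D3:**
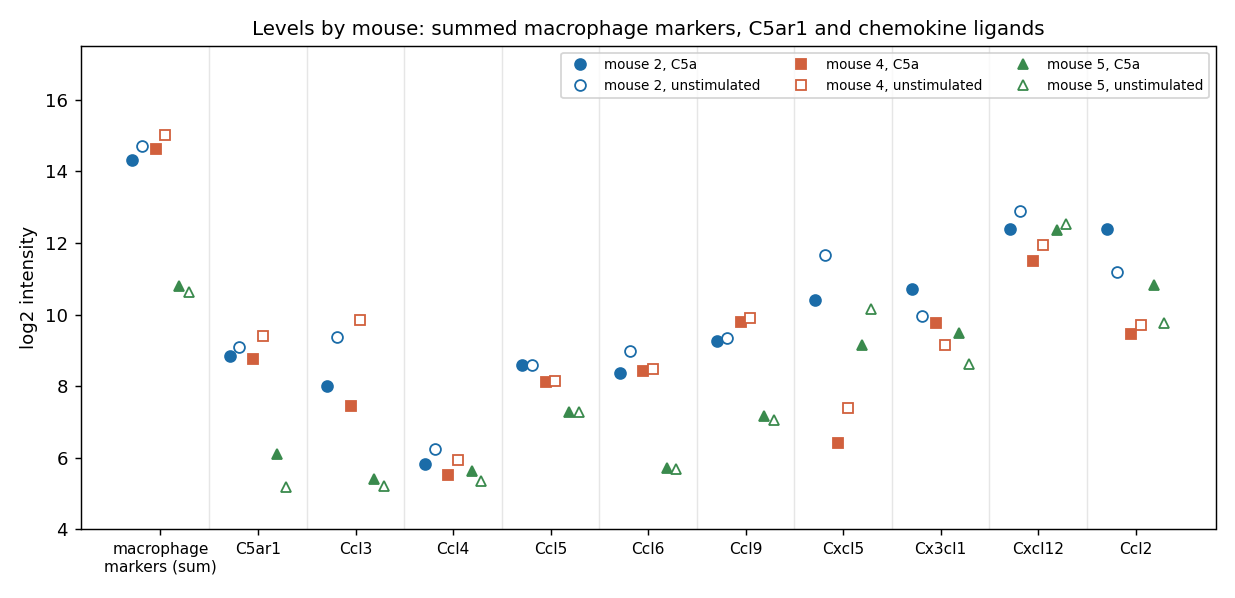
Log2 intensity (vertical axis) of C5ar1 and 9 chemokine ligands in each culture, and the log2 summed level of the macrophage markers, with a colour and symbol for each mouse, filled for C5a and open for unstimulated. The macrophage markers, C5ar1, Ccl3, Ccl6 and Ccl9 in mouse 5 lie below mice 2 and 4 in both groups, with a difference of -3.36 for Ccl3 from the mean of those mice.

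The lymphoid and epithelial CC ligands held 1 gene with non-overlapping groups. Ccl17, a ligand of CCR4, read 5.99, 6.03 and 6.24 with C5a, against 5.74, 5.82 and 5.86 unstimulated. It was higher in each mouse, but at 0.28 (SE 0.07, adjusted p = 0.175 with limma) the change of Ccl17 was under 1.5-fold. Its receptor gene Ccr4 read below the array median, with a change of 0.14 (SE 0.07, adjusted p = 0.448 with limma). The other 6 ligands of this group changed by -0.01 to 0.21, with the brightest probeset read for each gene. Probesets shared by the near-identical copies of Ccl21 and Ccl27 name several genes, and these 7 probesets were left out. The 10 CC receptors had changes between -0.15 and 0.14 and 0 met the thresholds, and the CXC and CX3C receptors other than Cxcr6 had changes between -0.14 and 0.12.

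Calls were also counted by signal. Of the 54 members, 20 had a mean at or above the array median of 5.91, and these were 18 ligands and the receptors Ackr3 and Ackr4. Among these 20 members 4 met the thresholds, or 20%, against 7.25% of all genes that bright. Among the 34 dimmer members 1 met them (2.94%, Cxcr6), against 0.273% of dimmer genes. Brightness differs between probesets for reasons other than transcript number, so the levels of different genes are not compared. Higher with C5a in 3 of 3 mice were 10 members (19% of all genes were), and lower in 3 of 3 mice were 5 (22.9% of all genes). The remaining 39 were mixed, as were 11572 of all 19938 genes.

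**Figure D4:**
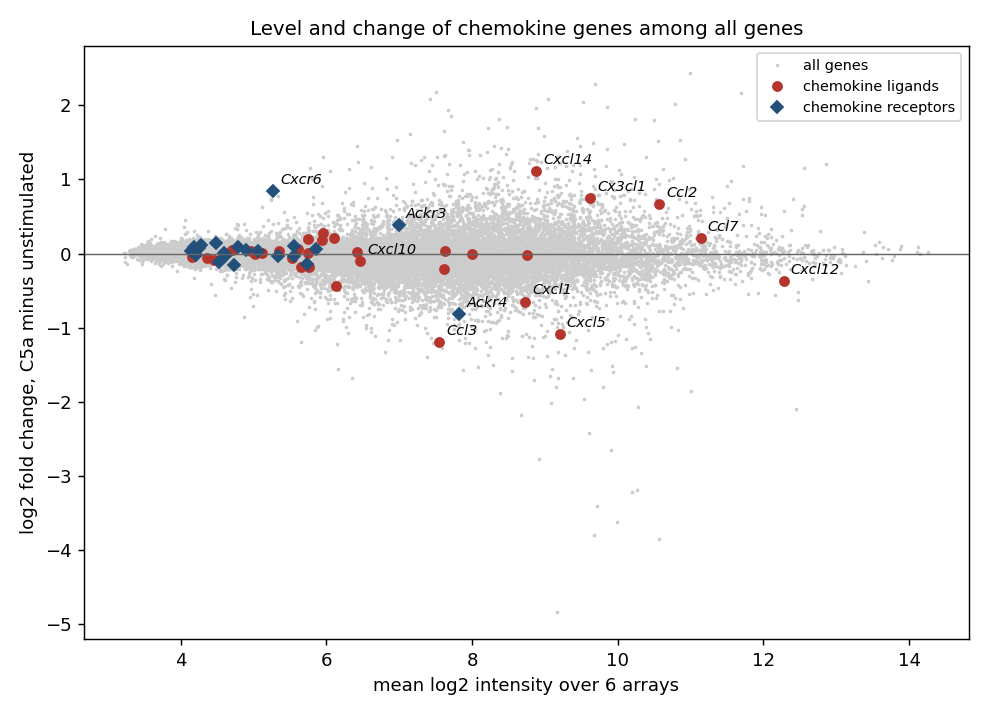
Mean log2 intensity over 6 arrays (horizontal axis) against the log2 change, C5a minus unstimulated (vertical axis), for the ligands (circles) and receptors (diamonds) among all genes (grey). Cxcr6, with a change of 0.84, stands away from the other members under the array median of 5.91, which lie close to 0.

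Many chemokine genes lie in clusters, and in the annotation (GRCm38.p6) 33 members stood in 9 runs. Within a run at most 2 other protein-coding genes lay between neighbouring members. Only members annotated as protein-coding were placed, which left out Cxcl11. The run Cxcl5, Cxcl3, Cxcl15, Cxcl1 and Cxcl2 on chromosome 5 had 4 of 5 changes below 0, of which only that of Cxcl5 met the thresholds. In the run Ccl22, Cx3cl1 and Ccl17 on chromosome 8 all 3 changes were above 0, at 0.05, 0.75 and 0.28. On chromosome 11 the run Ccl2, Ccl7, Ccl11, Ccl12, Ccl8 and Ccl1 had 5 of 6 changes above 0. The run Ccl5, Ccl9, Ccl6, Ccl3 and Ccl4 had 5 of 5 below 0, with 0 calls in either run. These are means over the mice, and in mouse 5 each gene of the latter run was above 0, from 0.007 (Ccl5) to 0.28 (Ccl4). Over all genes 10393 of 19938 changes were below 0. The runs of 2 were Cxcr2 and Cxcr1, Cxcl9 and Cxcl10, Ccl26 and Ccl24, and Cx3cr1 and Ccr8. Each had 1 change above 0 and 1 below. The pair of Cxcl9 and Cxcl10 leaves out Cxcl11, which overlaps the gene Art3 as Cxcl10 does and had a change of 0.005. On chromosome 9 Cxcr6 was the only called gene of a run of 6 receptors, with the others at -0.15 to 0.08.

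Genes that act around chemokines were read from lists of their own, beside the 4.43% of all genes that met the thresholds (2.22% higher and 2.21% lower). Among 19 measured genes of chemokine processing and presentation 1 rose and 1 fell. Sdc4, a heparan sulfate proteoglycan that binds chemokines, rose (12.63, 11.35 and 11.88 with C5a, against 11.57, 10.63 and 10.93 unstimulated), with a change of 0.91 (SE 0.09, adjusted p = 0.0858 with limma). Tnfaip6, whose product binds chemokines and hyaluronan, fell by 0.69 (SE 0.23, adjusted p = 0.243). Of 26 measured genes of chemokine receptor signal transduction 0 rose and 1 fell, a share near that of all genes. Rgs1, which speeds the shut-off of G protein signalling, read 5.60, 5.75 and 5.21 with C5a, against 7.89, 8.61 and 5.08 unstimulated. As for Ccl3, the difference was in mice 2 and 4 (-2.29 and -2.86) and not in mouse 5 (0.13). Among 7 further chemokine-related genes outside the symbol rule, Ccrl2, a receptor-like gene whose product binds chemerin, fell by 0.60 (SE 0.21, adjusted p = 0.278) and 0 rose. Without the pairing Sdc4, Rgs1 and Ccrl2 did not meet the thresholds.

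Many chemokine transcripts carry AU-rich elements that mark them for decay by proteins of the tristetraprolin family. Of 10 measured genes of AU-rich decay 2 fell and 0 rose, where 2.21% of all genes fell and 7.25% of those at or above the array median met the thresholds in either direction. Zfp36, which encodes tristetraprolin, read 8.93, 8.60 and 8.48 with C5a, against 12.16, 11.64 and 11.77 unstimulated, groups far apart in every mouse. Zfp36 fell by 3.19 (SE 0.08, adjusted p = 0.00685 with limma) and passed the adjusted threshold, and the related Zfp36l1 fell by 1.26 (SE 0.16, adjusted p = 0.0902). Of 16 measured NF-kB and interferon regulatory factor genes upstream of chemokines 4 fell and 0 rose: Nfkbiz, Irf9, Irf1 and Stat2, beside the same 2.21% of all genes. The median change of these 16 genes was -0.01. Nfkbiz, a nuclear IkB protein needed for part of the NF-kB response, had changes of -1.25, -2.12 and -1.39 in mice 2, 4 and 5 (mean -1.58, SE 0.19, adjusted p = 0.0878 with limma). Irf9 and Stat2, which form the interferon-stimulated complex that binds the ISRE, fell by 0.90 and 0.83. Irf1, an interferon-inducible activator, fell by 0.64 (SE 0.08) and was not called without the pairing. Nfkbia, which encodes the NF-kB inhibitor IkBα and was chosen after its values were seen, had changes of 0.56, -0.55 and 0.03, the same signs as Cxcl10 in mice 2 and 4.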

How the data were processed

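The authors normalized the arrays (Affymetrix Mouse Gene 1.0 ST) by RMA in Affymetrix Expression Console and BRB-ArrayTools and deposited log2 intensities per probeset. Versions are not given in the sources used here. RMA compresses changes of dim probesets. From these values all 35556 probesets were fitted, with no filter, by limma 3.58.1 in R 4.3.3 (lmFit and eBayes, two-sided, Benjamini-Hochberg), with the mouse as a block. The design text states that each mouse gave a culture to both groups. Deviations from the group means correlated at 0.495 to 0.684 within a mouse and at -0.446 to -0.035 between mice. These deviations cancel within each group of 3 arrays, so positive values within mice force negative ones between mice on average. The limma p-values draw on the spread over 3 animals (2 residual degrees of freedom) and on variances pooled over all probesets (2.77 prior degrees of freedom). Only the paired form of the methods' t-test uses the spread of the 3 pairs alone. The fold threshold, written in the methods as at most 1.5, was read as at least 1.5. Probesets were named through the platform annotation, and a gene with several (Ccl19 and Ccl25 here) is given by the brightest. The block fit was also run on simulated arrays, with normal errors drawn from its own variance model. Because the model holds there by design, that run checks the code and not the calls made here.

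The members and lists were chosen with earlier results of these data known. Named are all called members, the smallest p in each role group, the 10 brightest, the 6 with the widest range between mice, Cxcl10, Cxcr3, Cxcl12, Cxcr4 and Ackr3, and up to 3 called genes of each other list. Alternatives were the unpaired fit, the methods' t-test in both forms, leaving out each mouse, dropping probesets under the 40th percentile, robust estimation with a variance trend, quantile normalization, median centring and the probeset with the largest spread. Other members are given by their group.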

Additional observations from a re-analysis of the deposited data

How the results depend on the processing

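Of the 54 members, 3 met the thresholds higher and 2 lower, and the pairing decided most of these calls. Without the mouse block, limma and the methods' t-test each gave 1 higher (Cxcr6) and 1 lower (Ackr4), losing Cxcl5, Cx3cl1 and Cxcl14. The paired form of the methods' t-test, with the replicate block, gave 1 higher (Cx3cl1) and 1 lower (Cxcl5), losing Cxcl14, Cxcr6 and Ackr4. Over all probesets 1166 were called with the block, 923 without it, 665 by the methods' t-test and 517 by its paired form. The filter at the 40th percentile kept 32 members, called 4 lower (with Cxcl1 and Ccl3) and 2 higher, and put 2 past the adjusted threshold, Cxcl5 (adjusted p = 0.0286 with limma) and Cx3cl1 (0.0369); 373 of 21334 probesets then passed it, against 4. In the other settings 0 members passed the adjusted threshold. Median centring added Cxcl1. Under the variance trend, quantile normalization and the probeset with the largest spread the same 5 genes were called.

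Leaving out each mouse gave 2 to 4 members higher, 2 to 3 lower, 0 past the adjusted threshold, and a median change of -0.0013 to 0.03. Some changes close to 0 or opposite between mice turned sign. Without mouse 2, Ccl7 was at -0.064. Without mouse 4, Cxcl10 was at 0.39, Ccl9 at 0.021 and Cxcr4 at 0.081, and Ccl5 was at 0.018 under quantile normalization. Over the mice left out, Cxcl10 ranged from -0.55 to 0.39, Ccl7 from -0.064 to 0.61, Ccl9 from -0.091 to 0.021 and Cxcr4 from -0.14 to 0.081. The filter tests fewer probesets and also refits the variances on those kept. Unadjusted p-values moved with it as well, from 0.0567 to 0.0425 for Cxcl1 and from 0.0615 to 0.0441 for Ccl3 (limma). The causes of the differences between settings were not tested. The 34 members under the array median are limited by signal over background, where a missed call is no sign of a constant transcript.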
